A study of Homo sapiens with 6 samples.

Results

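The alpha-granule genes described here are 10 genes, chosen by name as genes of alpha-granule cargo or genes needed to form the granules. They are PF4, PPBP, VWF, F13A1, SRGN, CLU, MMRN1 and SELP among the cargo and membrane genes, and NBEAL2 and VPS33B among the biogenesis genes. All 10 were found among the 58735 genes of the deposited counts, and 9 of them were among the 15078 genes with enough counts to be tested. The study asked what propionate (C3), a fermentation product of intestinal bacteria, does to gene expression in megakaryocytic cells. RNAseq was done in Meg-01, an established human megakaryoblastic cell line, in 3 libraries of untreated controls and 3 libraries of cells after C3 treatment. C3 was given as sodium propionate at 500 µM, and the labels of the C3 libraries give 48 h, whereas the methods name 24 h and 48 h. The labels of the controls give no time. The data come from a single cell line, and in the study the replicates of each group are named technical, so that p-values measure the spread between these libraries and not necessarily that between cultures. Library totals were 19318595, 18050689 and 16159449 counts for control replicates 1 to 3, and 16513025, 18652292 and 22821722 counts for C3 replicates 1 to 3.

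Alpha-granules are the most abundant secretory granules of platelets. Megakaryocytes fill them with chemokines, adhesive proteins and coagulation factors, partly made by the cell and partly taken up from plasma, and platelets release them at sites of injury. The granules mature from multivesicular bodies with the help of membrane trafficking proteins, and loss of NBEAL2, VPS33B or its partner VIPAS39 leaves platelets without normal alpha-granules.

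On a scale that corrects for transcript length (TPM), the levels of the 10 genes in control cells went from 354 for SRGN down to 0 for PF4. Between them came SELP at 107 TPM, NBEAL2 at 34.1, MMRN1 at 22.98, CLU at 3.66, PPBP at 2.43, VPS33B at 2.40, F13A1 at 1.22 and VWF at 0.976 (means, n = 3 control libraries). SRGN was thus higher per length than 97.5% of the tested genes with a known length and SELP than 90.2%, whereas F13A1 was higher than 13.04% and VWF than 10.9%. Of the neighbours in this order, PPBP and VPS33B overlapped between their control libraries, as did F13A1 and VWF. The other neighbours did not overlap in the control libraries. After C3 treatment VPS33B (2.33 to 3.03 TPM) lay above F13A1 (1.68 to 2.18 TPM) and PPBP (0.756 to 1.99 TPM), and F13A1 and PPBP overlapped. TPM was used for levels between genes, for the summed levels of marker genes and as a second scale for SRGN. On that scale the median tested gene was shifted by 0.13 on the log2 scale after C3 treatment, and TPM values of the groups carry this shift. Differences of single genes between the groups were tested on TMM-normalized counts, which are counts scaled to a common effective library size.

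**Figure D1:**
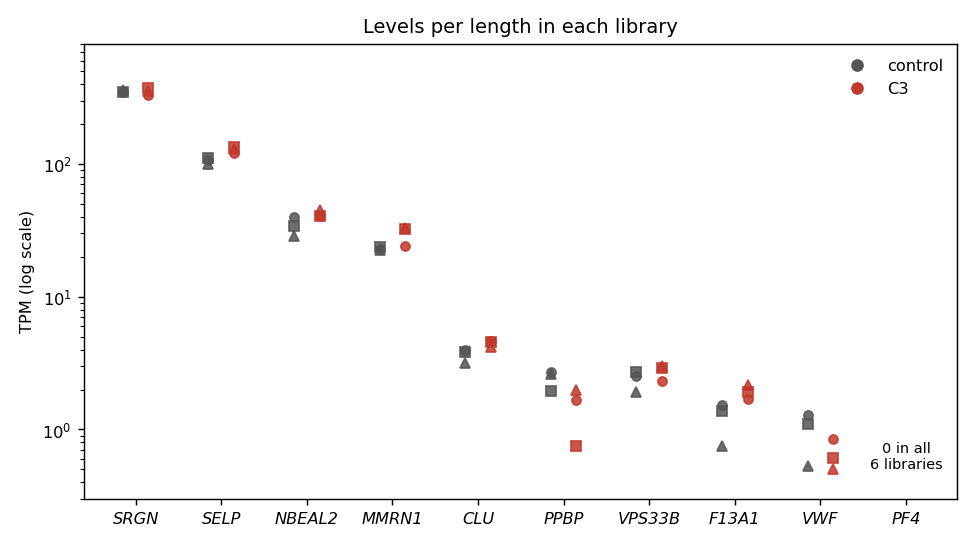
Level of each gene in TPM (log axis) in the 3 control libraries (grey) and the 3 C3 libraries (red), in the order of the control means. SRGN and SELP lie near the top with means of 354 and 107 TPM in control cells, VWF is lowest of the detected genes at 0.976 TPM, and PF4 was at 0 in all 6 libraries.

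In the comparison of C3 with control cells over all tested genes, 0 of the 9 tested alpha-granule genes were DEGs in either direction by edgeR's quasi-likelihood test, with the gates of adjusted p below 0.01 and more than 1.3-fold change. Among all tested genes 5.05% were upregulated by these gates (761 genes) and 1.47% downregulated (222 genes). With library size alone in place of TMM factors the upregulated share of the DEGs was 91.0% instead of 77.4%, and the count of alpha-granule genes among them was still 0. At an unadjusted p below 0.05, 3 of the 9 genes were higher (MMRN1, SELP and NBEAL2), beside 16.8% of all tested genes, and 2 lower (VWF and SRGN), beside 15.3%, and DESeq2 and limma-voom also gave 0 DEGs among them. By an adjusted p below 0.05 at any fold change, 1 of the 9 genes was higher (MMRN1), beside 11% of all tested genes, and 0 were lower, beside 8.77%. The median log2 fold change of the 9 genes was 0.15, that of all tested genes 0.00. In 2 of the 9 genes (F13A1 and SELP) each C3 value exceeded each control value, beside 17.5% of all tested genes, and in 2 (PPBP and SRGN) each was lower, beside 16.9%.

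**Figure D2:**
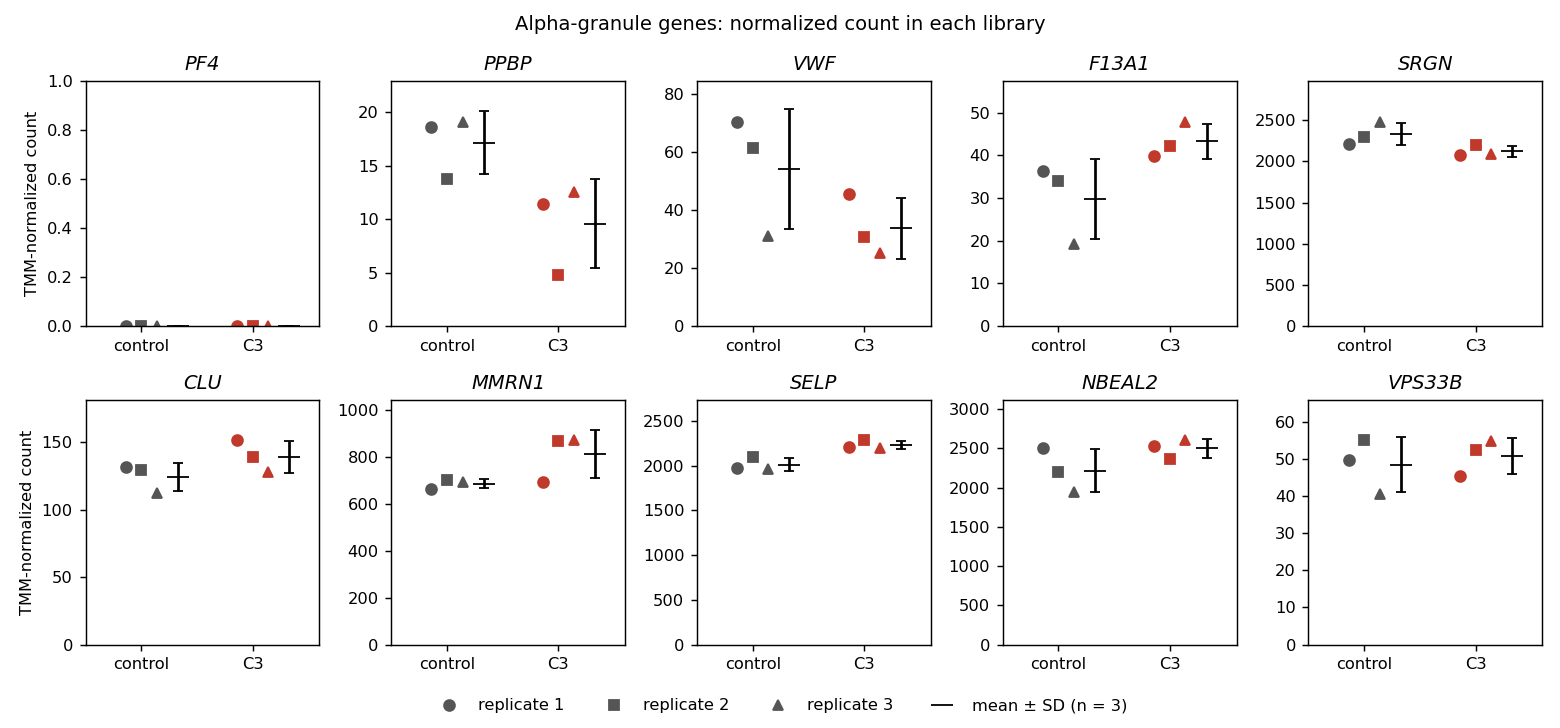
TMM-normalized count of each of the 10 genes in every library, with replicates 1 to 3 as circle, square and triangle (control grey, C3 red) and the mean and SD of each group (n = 3). Groups do not overlap for PPBP, F13A1, SRGN and SELP, and PF4 is at 0 throughout.

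PF4 encodes platelet factor 4 (CXCL4), a heparin-binding chemokine and a classical product of megakaryocytes. PF4 (ENSG00000163737; chr4:73980811-73982027, reverse strand, GRCh38) had 0 counts in each of the 6 libraries. No other gene of the deposited counts overlapped its exons. A count of 0 over a group allows up to 3 counts, which is 0.056 CPM (counts scaled to library totals) in control cells and 0.0517 in C3 cells, so PF4 was not detectable at this depth in either group and no fold change could be given. The limit covers counting error only. PF4V1, a close copy of PF4 in the same chemokine cluster, was also at 0 counts in all 6 libraries.

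PPBP, the gene next to PF4 in the chemokine cluster, encodes the precursor of beta-thromboglobulin and of the neutrophil attractant NAP-2. PPBP (ENSG00000163736; chr4:73986439-73988190, reverse strand) had TMM-normalized counts of 18.6, 13.8 and 19.1 in control replicates 1 to 3 and of 11.4, 4.79 and 12.5 in C3 replicates 1 to 3. The C3 libraries were all below the control libraries, and C3 replicate 2 was the lowest. PPBP thus had a log2 fold change of -0.82 (95% confidence interval -1.68 to 0.04), with an adjusted p of 0.176 in edgeR's test and 0.1 in the two-sided exact permutation test, the smallest value that 3 libraries against 3 can give. Without C3 replicate 2 it was -0.50 (adjusted p 0.503), and without C3 replicate 3 it was -1.11 (adjusted p 0.165). Less RNA in each cell and fewer cells with the transcript cannot be told apart in bulk RNA, here and for the genes below. These values rest on 48 counts over the control libraries and 31 over the C3 libraries. Since PF4 had no count, the ratio of PF4 to PPBP within a library was not computed.

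Of 14 genes listed from the CXC and EGF-family cluster around PF4 and PPBP, 5 could be tested and 4 were at 0 in every library. None of the 5 was a DEG in edgeR's test (0 higher and 0 lower, in DESeq2 and limma-voom as well, and 1 lower at an unadjusted p below 0.05, beside 15.3% of all tested genes). EREG, the gene of the growth factor epiregulin and the most abundant of the list by normalized count, had a log2 fold change of -0.27 (adjusted p 0.0159 in edgeR's test). It was the 1 gene of the list past an adjusted p of 0.05, beside 8.77% of all tested genes that were lower at that threshold. EPGN, another EGF-family gene of the cluster that was not in the list, had -0.66 (adjusted p 0.0158). The second most abundant, CXCL3, had a log2 fold change of 0.04 (adjusted p 0.935 in edgeR's test).

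VWF encodes von Willebrand factor, the large adhesive protein that tethers platelets to the vessel wall, which is made by megakaryocytes and endothelial cells. VWF (ENSG00000110799; chr12:5948877-6124770, reverse strand) had normalized counts of 70.5, 61.5 and 31.0 in control replicates 1 to 3 and of 45.5, 30.6 and 25.1 in C3 replicates 1 to 3. Control replicates 1 and 2 were higher than every C3 library, but control replicate 3 lay among the C3 libraries. C3 against control gave -0.74 on the log2 scale (95% confidence interval -1.31 to -0.17), with an adjusted p of 0.0629 in edgeR's test and 0.2 in the exact permutation test. The adjusted p was 0.0113 without control replicate 3, and 0.0239 (log2 fold change -0.99) without C3 replicate 1, the highest C3 library. With both of these libraries left out, an alternative chosen after seeing the data, VWF was a DEG at -1.25 (adjusted p 0.00027). The difference was smaller without control replicate 1 (-0.49, adjusted p 0.338) and without C3 replicate 3 (-0.54, adjusted p 0.282). The adjusted p was also below 0.05 with no count filter (0.0224) and with a replicate block (0.0408). Control replicate 3 and C3 replicate 1 also stood apart from the other libraries of their groups on the second principal component of all tested genes, which held 17.4% of the variance.

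F13A1 encodes the catalytic subunit of coagulation factor XIII, the transglutaminase that cross-links fibrin. F13A1 (ENSG00000124491; chr6:6144084-6321013, reverse strand) had normalized counts of 36.2, 33.9 and 19.1 in the control replicates and of 39.8, 42.1 and 47.8 in the C3 replicates. Every C3 library was above every control library, and the gap was small for control replicates 1 and 2, with control replicate 3 again the lowest. The log2 fold change was 0.53 (95% confidence interval -0.02 to 1.07), with an adjusted p of 0.170 in edgeR's test and 0.1 in the exact permutation test. Without control replicate 3 it was 0.31 with an adjusted p of 0.463.

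SRGN encodes serglycin, the proteoglycan core that holds PF4 and other basic proteins inside the granule. SRGN (ENSG00000122862; chr10:69088103-69104805, forward strand) had normalized counts of 2216, 2296 and 2480 in the control replicates and of 2081, 2199 and 2085 in the C3 replicates. All C3 libraries were below all control libraries, with C3 replicate 2 just under control replicate 1. The log2 fold change of -0.13 (95% confidence interval -0.27 to -0.004) had an adjusted p of 0.142 in edgeR's test and 0.1 in the exact permutation test. It was -0.06 (adjusted p 0.557) with library size alone and -0.09 without control replicate 3. On the TPM scale the groups of SRGN overlapped, at 354 ± 8.14 in control cells and 352 ± 22.1 in C3 cells (SD, n = 3 each).

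CLU encodes clusterin, a secreted chaperone of plasma and granules. CLU (ENSG00000120885), which shares 2.4% of its exon bases with a microRNA gene of the same strand, had normalized counts of 131, 129 and 112 in the control replicates and of 151, 139 and 128 in the C3 replicates. The groups overlapped, since C3 replicate 3 lay below control replicates 1 and 2. C3 against control gave 0.15 on the log2 scale at an adjusted p of 0.490 in edgeR's test, and 0.09 to 0.22 with single libraries left out.

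MMRN1 encodes multimerin 1, a very large soluble protein of the granule that binds coagulation factor V. MMRN1 (ENSG00000138722; chr4:89879532-89954629, forward strand) had normalized counts of 662, 701 and 693 in the control replicates and of 692, 868 and 869 in the C3 replicates. C3 replicates 2 and 3 were above all control libraries, and C3 replicate 1 lay among them, so that the groups overlapped. The log2 fold change of 0.25 (95% confidence interval 0.08 to 0.42) had an adjusted p of 0.0344 in edgeR's test, below 0.05 but short of both gates, and the exact permutation test gave 0.3. Over all alternatives tried its adjusted p went from 3.7e-05 to 0.205. With any 1 library other than C3 replicate 1 left out the adjusted p was between 0.0607 and 0.205, and without C3 replicate 1 it was 0.000933 at a log2 fold change of 0.35. With DESeq2 the adjusted p was 0.0975.

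SELP encodes P-selectin, the adhesion receptor of the granule membrane that appears on the surface of activated platelets and binds leukocytes. SELP (ENSG00000174175; chr1:169588849-169630193, reverse strand) had normalized counts of 1971, 2097 and 1968 in the control replicates and of 2205, 2283 and 2197 in the C3 replicates. All C3 libraries were above all control libraries, and the libraries of a group lay close together. The log2 fold change was 0.15 (95% confidence interval 0.02 to 0.27), which is a fold change of 1.11, with an adjusted p of 0.0949 in edgeR's test and 0.1 in the exact permutation test. The adjusted p was below 0.05 without C3 replicate 1 (0.0471), with library size alone (0.0135) and with control replicate 3 and C3 replicate 1 both left out (0.0207), and between 0.136 and 0.242 with any other single library left out.

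NBEAL2 encodes a large BEACH-domain protein that retains cargo in maturing alpha-granules, and its loss causes gray platelet syndrome. NBEAL2 (ENSG00000160796; chr3:46979666-47009704, forward strand) had normalized counts of 2506, 2203 and 1948 in the control replicates and of 2536, 2361 and 2604 in the C3 replicates. The groups overlapped, because control replicate 1 was above C3 replicate 2, and the control libraries were more spread than the C3 libraries. NBEAL2 thus differed by 0.17 on the log2 scale (95% confidence interval 0.02 to 0.32), with an adjusted p of 0.108 in edgeR's test and 0.2 in the exact permutation test. Without control replicate 1 it was 0.28 with an adjusted p of 0.0148, and without control replicate 3 it was 0.09 with 0.435. The adjusted p was also below 0.05 with a replicate block (0.0346) and with library size alone (0.0297).

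VPS33B encodes a Sec1/Munc18-type protein that acts with VIPAS39 in the sorting of proteins to alpha-granules. VPS33B (ENSG00000184056; chr15:90998673-91022603, reverse strand) had normalized counts of 49.96, 55.1 and 40.6 in the control replicates and of 45.5, 52.6 and 54.9 in the C3 replicates. The groups overlapped fully, with the highest value in a control library and the lowest in another. The log2 fold change was 0.07 (95% confidence interval -0.37 to 0.52) with an adjusted p of 0.859 in edgeR's test, and it was -0.03 without control replicate 3. VPS33B shares 55.7% of its exon bases with a gene of the same strand, ENSG00000284946, which also covers exons of PRC1 and had 39, 24 and 20 counts in the control replicates and 29, 30 and 55 in the C3 replicates. The sources used here do not give how reads of the shared exons were assigned, and the count of VPS33B is therefore uncertain.

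VIPAS39, the partner of VPS33B, had normalized counts of 266, 295 and 296 in the control replicates and of 294, 233 and 254 in the C3 replicates. The groups overlapped, and the log2 fold change was -0.14 with an adjusted p of 0.403 in edgeR's test, and from -0.22 to -0.06 with single libraries left out. Per length VIPAS39 was at 14.3 TPM in control cells, above the 2.40 TPM of VPS33B, which is uncertain because of its shared exons. Within libraries the log2 ratio of VPS33B to VIPAS39 counts was -2.40, -2.41 and -2.85 in the control replicates and -2.67, -2.13 and -2.20 in the C3 replicates (pseudocount 0.5). The ratio was thus higher in C3 replicates 2 and 3 than in any control library and overlapped the controls in C3 replicate 1. The difference of 0.22 between the group means had a two-sided exact permutation p-value of 0.4. VPS33A, the close relative of VPS33B in the HOPS and CORVET tethering complexes, differed by -0.27 on the log2 scale (adjusted p 0.147), with 21.6% of its exon bases also annotated to a same-strand gene.

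**Figure D3:**
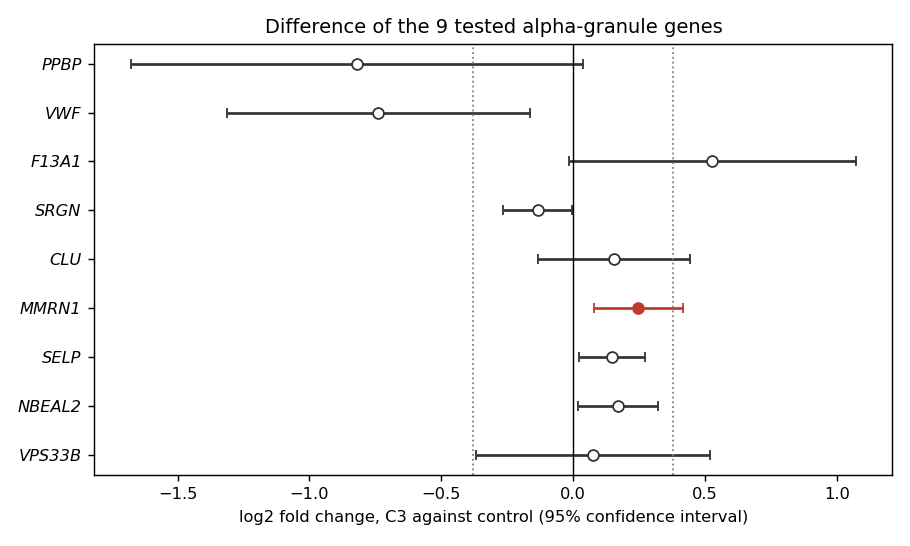
Log2 fold change of C3 against control with its 95% confidence interval (edgeR, n = 3 libraries per group) for the 9 tested genes. Dotted lines mark a fold change of 1.3, and the filled symbol is MMRN1, the only gene with an adjusted p below 0.05 in this fit (0.0344), whereas the widest intervals belong to PPBP, VWF and F13A1, which had the fewest counts among the 9 genes.

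Promoter sequences were looked at because GATA and ETS factors act on many megakaryocyte genes and because these genes differ so much in level. From a RefSeq table of promoters (GRCh38.p14), windows of 5 of the 10 genes were searched (PPBP, F13A1, MMRN1, SELP and NBEAL2), with 7 start sites among them. No window was searched for PF4, VWF, SRGN, CLU and VPS33B, and whether CLU has an entry was not tested. The 250 bases before each start were searched on both strands for letters at the core of known sites. These were GATAA for the GATA family of zinc finger factors, then GGAAGT for factors of the ETS family, and finally TATAAA for the core promoter box that positions the start of transcription. Shown are the abundant SELP, the sparse PPBP and F13A1, and MMRN1 at its downstream start site, all 5′ to 3′ on the strand of the gene with matches in capitals.
SELP (chr1:169630125-169630374, reverse strand): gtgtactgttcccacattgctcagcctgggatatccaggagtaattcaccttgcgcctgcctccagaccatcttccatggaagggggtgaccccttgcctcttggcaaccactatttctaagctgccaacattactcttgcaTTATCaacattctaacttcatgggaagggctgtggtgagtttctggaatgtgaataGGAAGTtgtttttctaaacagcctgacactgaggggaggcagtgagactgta
PPBP (chr4:73988191-73988440, reverse strand): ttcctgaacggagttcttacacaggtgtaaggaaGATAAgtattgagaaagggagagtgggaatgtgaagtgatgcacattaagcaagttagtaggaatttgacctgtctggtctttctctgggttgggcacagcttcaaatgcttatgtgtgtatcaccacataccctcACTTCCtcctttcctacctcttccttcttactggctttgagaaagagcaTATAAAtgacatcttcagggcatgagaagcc
F13A1 (chr6:6320663-6320912, reverse strand): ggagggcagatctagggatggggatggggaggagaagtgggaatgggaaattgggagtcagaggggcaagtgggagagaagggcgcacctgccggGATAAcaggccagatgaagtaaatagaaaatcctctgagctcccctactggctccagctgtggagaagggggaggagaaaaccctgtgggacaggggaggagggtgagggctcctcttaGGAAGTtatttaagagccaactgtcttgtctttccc
MMRN1 (chr4:89894604-89894853, forward strand): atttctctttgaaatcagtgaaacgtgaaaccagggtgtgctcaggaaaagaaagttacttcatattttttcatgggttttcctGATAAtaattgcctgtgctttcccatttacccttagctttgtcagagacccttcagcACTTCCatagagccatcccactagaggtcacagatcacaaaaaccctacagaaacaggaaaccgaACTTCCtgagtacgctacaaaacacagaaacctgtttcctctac
Each of these 4 windows holds 1 GATAA match and at least 1 GGAAGT match, counted on either strand, and MMRN1 holds 2 of the latter. They are the only ones of the 7 windows with GATAA, so matches in the windows shown are no measure of enrichment. Of all 35116 promoter windows of this length, 20.4% hold GATAA and 19.5% GGAAGT. The GGAAGT letters begin 36 bases before the start in F13A1 and 52 bases before it in SELP, and on the other strand 80 bases before it in PPBP and 109 and 44 bases before it in MMRN1. The starts are those of RefSeq. The F13A1 window lies wholly, and the SELP window partly, inside the gene spans given above, whose starts differ from these. TATAAA, held by 10.7% of all windows, is found in PPBP only among the 7 windows, 31 to 26 bases before the start. The upstream start site of MMRN1 and 1 of the 2 start sites of NBEAL2 hold none of the motifs, and the other NBEAL2 window holds 1 GGAAGT match. No match overlapped a match to another motif in these windows. The same pair of motifs was therefore present in the windows of SELP, at 107 TPM, and of F13A1, at 1.22 TPM. A match describes letters in the reference and is not evidence that a factor binds there.

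Other alpha-granule cargo was described from a list of 38 genes, of which 24 could be tested and 5 were at 0 in every library. Of the 24, 2 were upregulated DEGs and 0 downregulated (5.05% and 1.47% of all tested genes), and by an adjusted p below 0.05 alone 11 were higher and 1 lower (11% and 8.77% of all tested genes; edgeR). At the latter threshold 7 were higher with DESeq2 and 11 with limma-voom. The median log2 fold change was 0.20, with 19 genes above 0 and 5 below, beside 0.00 over all tested genes. The DEGs were THBS1, the gene of thrombospondin 1, and PDGFA, the gene of a platelet-derived growth factor chain. THBS1 had counts of 712, 652 and 513 in the control replicates and of 1172, 1279 and 1542 in the C3 replicates. All C3 libraries were far above the control libraries, and the difference was 0.91 on the log2 scale (SE 0.073, adjusted p 2.1e-09 in edgeR's test). On the other strand 7.58% of the exon bases of THBS1 belong to other genes. PDGFA had 27, 21 and 25 counts in the control replicates and 55, 51 and 55 in the C3 replicates, so that its groups were apart as well (log2 fold change 0.96, SE 0.257, adjusted p 0.00909). The call of PDGFA lay close to the threshold. The count of upregulated cargo genes was 1 with DESeq2, with limma-voom, or without control replicate 3, C3 replicate 1 or C3 replicate 3. It was 7 with library size alone, where 1024 of all tested genes were upregulated instead of 761. The most abundant cargo genes by normalized count were APP, the amyloid precursor (log2 fold change 0.22, adjusted p 0.0246), and TGFB1, the gene of the latent growth factor TGF-beta 1 (0.13, adjusted p 0.163). The gene that was lower by an adjusted p below 0.05 was TIMP1, a metalloproteinase inhibitor (log2 fold change -0.24, adjusted p 0.0164).

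Of the 15 other genes of the granule membrane, 13 could be tested, and 1 was upregulated (CD9) and 1 downregulated (GP1BA), beside 5.05% and 1.47% of all tested genes. CD9, a tetraspanin, had 41, 47 and 50 counts in the control replicates and 86, 90 and 147 in the C3 replicates. Every C3 library was above every control library, by 1.02 on the log2 scale (SE 0.193, adjusted p 0.000482 in edgeR's test). GP1BA, the chain of the GPIb-IX-V complex that binds von Willebrand factor, was lower in all C3 libraries, at 1878, 1838 and 1846 normalized counts, than in the control replicates, at 2678, 2510 and 2642 (log2 fold change -0.49, SE 0.061, adjusted p 2.2e-06). ITGB3, the beta chain of the fibrinogen receptor, was also higher by an adjusted p below 0.05 (log2 fold change 0.34, adjusted p 0.0325), although 33.2% of its exon bases also belong to a same-strand gene. The median of the list was -0.06. ITGA2B and CD63, the most abundant genes of the list, had log2 fold changes of -0.06 (adjusted p 0.573) and -0.02 (adjusted p 0.874). TREML1, the gene of an alpha-granule membrane receptor typical of megakaryocytes, had between 1 and 7 counts in a library and was not tested.

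Of 22 other genes of granule biogenesis and endosomal sorting, all 22 were tested and 0 were DEGs in either direction in edgeR's test, in DESeq2 and in limma-voom. At an unadjusted p below 0.05, 1 was higher and 7 were lower, beside 16.8% and 15.3% of all tested genes. By an adjusted p below 0.05, 0 were higher and 4 were lower (11% and 8.77% of all tested genes), and the median log2 fold change was -0.10, with 16 genes below 0 and 6 above. The 4 genes were VPS11 (log2 fold change -0.26, adjusted p 0.00987), VPS39 (-0.25, adjusted p 0.0133), VPS18 (-0.22, adjusted p 0.0302) and AP1G1 (-0.19, adjusted p 0.0289). VPS11, VPS18 and VPS39 encode subunits of the HOPS tethering complex, and AP1G1 a subunit of the AP-1 clathrin adaptor. These differences were below a fold change of 1.3. CLTC, the clathrin heavy chain, and AP1B1, another AP-1 subunit, were the most abundant and had log2 fold changes of -0.15 (adjusted p 0.0892) and -0.13 (adjusted p 0.194).

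**Figure D4:**
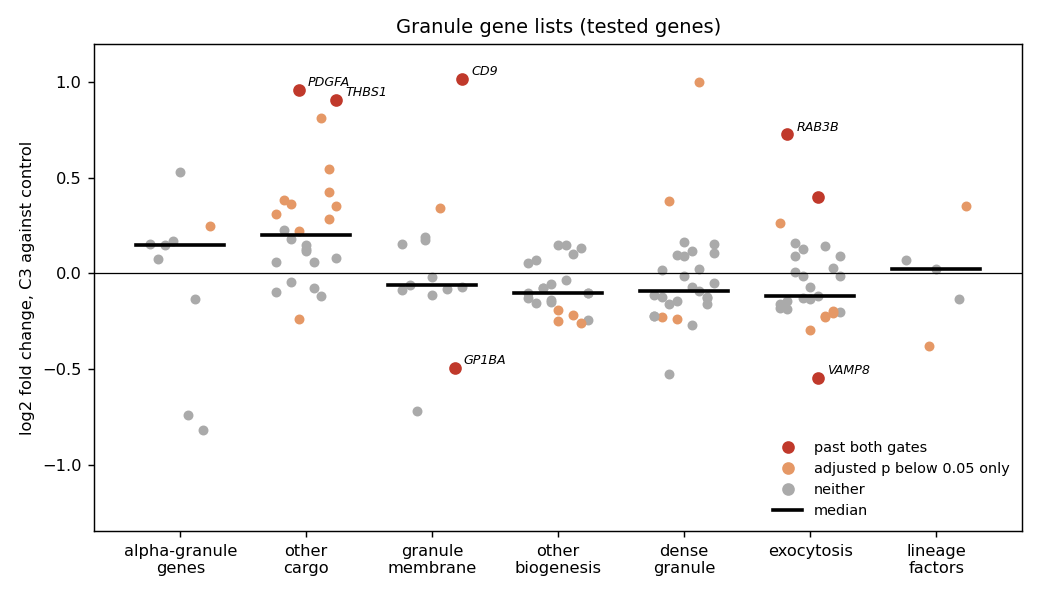
Log2 fold change of C3 against control for each tested gene of the 10 alpha-granule genes and of 6 gene lists, with the list median as a black bar. The medians are 0.15 for the alpha-granule genes, 0.20 for other cargo and -0.10 for other biogenesis genes, and red points passed both gates.

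Among 27 genes of granule exocytosis, all tested, 2 were upregulated and 1 downregulated (5.05% and 1.47% of all tested genes), and by an adjusted p below 0.05 alone 3 were higher and 6 lower (11% and 8.77%), with a median log2 fold change of -0.12. The downregulated gene was VAMP8, a vesicle SNARE of platelet granule release. VAMP8 had 946, 916 and 827 counts in the control replicates and 598, 642 and 869 in the C3 replicates, where C3 replicate 3 is the deepest library. Once scaled, all C3 libraries were lower, by -0.54 on the log2 scale (SE 0.072, adjusted p 5.9e-06 in edgeR's test). RAB3B, a small GTPase gene, was upregulated (log2 fold change 0.73, adjusted p 0.00201), and RALA was higher by adjusted p alone (0.26, adjusted p 0.0167). The count of upregulated genes was 1 without control replicate 1 or C3 replicate 3 and 0 without control replicate 3. UNC13D, which primes granules for fusion, and EXOC4, an exocyst subunit, were the most abundant, with log2 fold changes of -0.21 (adjusted p 0.0385) and -0.13 (adjusted p 0.16).

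For comparison with the other secretory granule of platelets, 27 dense granule genes were all tested and 0 were DEGs in edgeR's test (0 in DESeq2 and limma-voom as well), with 3 higher and 8 lower by unadjusted p below 0.05 (16.8% and 15.3% of all tested genes). The count of upregulated dense granule genes was 1 without control replicate 3 or C3 replicate 2. By an adjusted p below 0.05, 2 were higher and 2 lower (11% and 8.77% of all tested genes). The higher ones were SLC18A2, the monoamine transporter VMAT2, and SLC35D3, a putative nucleotide sugar transporter (log2 fold change 1.00, adjusted p 0.0219). SLC18A2 had a log2 fold change of 0.377 (adjusted p 0.0027), just short of the fold change gate, which is 0.379 on this scale. SLC18A2 shares 56.4% of its exon bases with genes on the other strand. The lower ones were HPS1 (-0.24, adjusted p 0.00822) and HPS6 (-0.23, adjusted p 0.042), which encode subunits of complexes that build lysosome-related organelles. ABCC4 and AP3D1 were the most abundant, with log2 fold changes of -0.11 (adjusted p 0.199) and 0.16 (adjusted p 0.0914). The median of the list was -0.09.

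Of 5 transcription factors that act on alpha-granule genes or their lineage, 0 were DEGs in edgeR's test, with 1 higher and 2 lower by unadjusted p below 0.05 (16.8% and 15.3% of all tested genes), whereas DESeq2 and limma-voom each called 1 lower. By both gates 5.05% of all tested genes were upregulated and 1.47% downregulated in the reported edgeR fit. In edgeR 1 was lower with RLE factors, without control replicate 3, without C3 replicate 1 or with both of these left out, and 1 was higher without C3 replicate 3 or with library size alone. By an adjusted p below 0.05, GFI1B, whose loss gives platelets poor in alpha-granules, was higher (log2 fold change 0.35, adjusted p 0.000329), and NFE2, a factor of late megakaryocyte maturation, was lower (-0.38, adjusted p 0.000189), just short of the fold change gate. At this threshold 11% of all tested genes were higher and 8.77% lower. RUNX1, the most abundant of the list, had a log2 fold change of -0.13 (adjusted p 0.132).

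The cell type was checked against marker genes. Those of megakaryocytes include PF4, SELP and VWF, so that their check is not independent of the alpha-granule genes. Of 16 megakaryocyte markers 14 could be tested, and PF4 and GP1BB were at 0, the latter sharing all of its exon bases with other genes. The most abundant was ITGA2B at 429 TPM (mean over the 6 libraries), and the summed level was 1791, 1766 and 1624 TPM in the control replicates and 1738, 1766 and 1785 TPM in the C3 replicates. The sums overlapped between the groups, and 0 of the markers were upregulated while 2 were downregulated (here and in the marker lists below, beside 5.05% and 1.47% of all tested genes), GP1BA and TUBB1, the platelet beta-tubulin (log2 fold change -1.36, adjusted p 0.00253; 35.5% of its exon bases lie opposite another gene).

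VWF and SELP are also endothelial genes. Of 10 endothelial markers 8 were tested and 2 were upregulated, KDR (log2 fold change 0.65, adjusted p 2.8e-08) and TEK (0.59, adjusted p 0.000244), while VWF had a negative log2 fold change. Among the 8, the log2 fold change was above 0 in 7 and below 0 in 1, ROBO4 (-0.64, adjusted p 0.146 in edgeR's test). The summed level of the endothelial markers was 627, 625 and 576 TPM in the control replicates and 757, 733 and 746 TPM in the C3 replicates. The C3 libraries were all higher (exact permutation p-value 0.1), on a scale shifted by 0.13 for the median tested gene. The most abundant was ESAM at 324 TPM (mean over the 6 libraries), CLDN5 had at most 8 counts in a library and SOX17 was at 0. Of 6 fibroblast markers 4 were tested, with COL1A1 upregulated and LUM downregulated, and the summed level was 47.2, 47.0 and 55.0 TPM in the control replicates and 35.3, 35.8 and 35.0 TPM in the C3 replicates, most of it LUM (means of 48.9 TPM in control and 33.9 TPM in C3 cells). COL1A1 had 6, 5 and 2 counts in the control replicates and 12, 11 and 34 in the C3 replicates. It had enough counts to be tested only through the C3 libraries, so that only an increase could be called. Erythroid (0 DEGs of 8 tested; KLF1 highest), myeloid (1 downregulated, LYZ, of 6; SPI1 highest), mast cell and basophil (1 upregulated, TPSAB1, of 6; GATA2 highest) and lymphoid markers (0 of 4; PTPRC highest) had summed control means of 165, 531, 588 and 92.6 TPM and C3 means of 185, 520, 654 and 111 TPM. TPSAB1, at 2, 4 and 3 control counts and 14, 11 and 17 C3 counts, was likewise tested only through the C3 libraries. As with the endothelial sum, the groups did not overlap for the mast cell and basophil and the lymphoid sums (C3 higher) and for the fibroblast sum (C3 lower), with an exact permutation p-value of 0.1 each. These are TPM sums, whereas on TMM-normalized counts the median log2 fold change of the tested genes was 0.28 for the endothelial, 0.02 for the mast cell and basophil, 0.18 for the lymphoid and 0.58 for the fibroblast list. The mast cell and basophil median includes TPSAB1 and the fibroblast median, over 4 genes, includes COL1A1. Both genes were tested only through the C3 libraries, so that these 2 medians cannot be set against the sums. HBE1 and MS4A1 were at 0 in every library. The part of the marker differences in the values of VWF and SELP was not tested.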

How the data were processed

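RNA of untreated and C3-treated Meg-01 cells was sequenced for the study in 3 libraries per group. The submitters' processing notes name fastp, STAR 2.6.1d, featureCounts 1.5.0-p3 and DESeq2, with GRCh38. The deposited values are whole-number counts per gene, made by the authors without normalization. Here, a gene needed 10 counts or more in 3 libraries or more, and groups were compared with edgeR 4.0.16 (quasi-likelihood, TMM factors, R 4.3.3) and Benjamini-Hochberg adjustment over all 15078 tested genes, without a replicate block. Gates were those of the study. TPM used merged exon lengths of GENCODE release 44, and 58207 genes had a symbol and length. The strand setting is not given in the sources used here. A count near 50 is limited by counting error. Groups came from the sample titles. Alternatives were DESeq2 1.42.0, limma-voom (limma 3.58.1), RLE factors, library size alone, other count filters, a replicate block and leaving out each library. Scripts were tested on simulated data. The genes and lists were chosen with earlier results of these data known. Genes named besides the 10 were, in each list, up to 3 DEGs with the smallest p-values, the 2 with the highest mean normalized count, VIPAS39, PF4V1, VPS33A, TREML1 and genes that answer a count of 5 or fewer, to which EPGN and marker genes were added. One gene of the exocytosis list is counted but not reported here. Promoter sequences are from RefSeq on GRCh38.p14.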

Additional observations from a re-analysis of the deposited data

How the results depend on the processing

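The count of DEGs among the alpha-granule genes was 0 at both gates under all alternatives but 1. The exception was 1 lower gene (VWF) with control replicate 3 and C3 replicate 1 both left out, which was chosen after seeing the data. At an adjusted p below 0.05, 1 was higher. With single libraries left out VPS33B went from -0.031 (without control replicate 3, adjusted p 0.945) to 0.172.

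Same-numbered libraries had correlations of their deviations of 0.135, -0.0796 and 0.0899. Those of differently numbered libraries went from -0.198 to 0.158, and control replicate 2 correlated better with C3 replicate 1 (0.103). Whether libraries of the same number belong together cannot be told from these values. With the replicate block, 909 genes were higher and 268 lower, 0 alpha-granule genes were DEGs (adjusted p below 0.05 for MMRN1, VWF and NBEAL2), and dense granule genes higher were 1 instead of 0. The block gave log2 fold changes of -0.86 for PPBP, -0.67 for VWF and 0.24 for MMRN1, and for the other cargo list 3 higher.

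Other cargo genes higher were 2 in the reported fit, 1 with DESeq2, limma-voom, a mean count of at least 50 or both libraries left out, 7 with library size alone, and 11 at an adjusted p below 0.05, which also gave 1 lower. Leaving out single libraries gave 1 to 2. At an adjusted p below 0.05 biogenesis genes lower were 4, membrane genes higher 2, dense granule genes higher 2 and lower 2, exocytosis genes lower 6, and all genes 1658 higher and 1323 lower. With DESeq2 at this threshold, other cargo genes higher were 7, membrane genes higher 1, dense granule genes higher 1 and lower 1, and transcription factors lower 2. Dense granule genes higher were 2 with no count filter, 1 with library size alone, a mean count of at least 50 or both libraries left out, and 0 to 1 with single libraries left out. Exocytosis genes higher were 0 to 2 with single libraries left out and 1 with both left out. All genes lower were 101 with library size alone, 129 to 340 with single libraries left out (129 without C3 replicate 3, 340 without C3 replicate 1), and 396 with both left out. The cause was not tested, other than that fewer libraries, another filter or another threshold change what can be called. PPBP, VWF and F13A1 had too few counts to be fitted with a mean count of at least 50. The C3 minus control difference of the log2 ratio of VPS33B to VIPAS39 kept its sign, from 0.07 to 0.39 with single libraries left out. The alternatives for the ratio of PF4 to PPBP were not run, since PF4 had 0 counts. PF4, PPBP, F13A1 and VWF had the fewest counts of the alpha-granule genes, and depth was not compared with other limits.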

Other observations

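Among 17 genes listed as relatives or partner subunits of the alpha-granule genes, 12 could be tested, with 1 upregulated and 0 downregulated DEGs (5.05% and 1.47% of all tested genes) and a median log2 fold change of 0.22. The count of upregulated genes was 2 without C3 replicate 3, with the replicate block, with no count filter and with library size alone. The DEG was EMILIN2, of the EMILIN/multimerin family to which MMRN1 belongs. EMILIN2 had 1488, 1375 and 1194 counts in the control replicates and 1731, 1981 and 2510 in the C3 replicates. After scaling the log2 fold change was 0.43 (adjusted p 1.9e-05 in edgeR's test). EMILIN1 of the same family had a log2 fold change of 0.48 (adjusted p 0.0372). By an adjusted p below 0.05, 4 of the 12 were higher, beside 11% of all tested genes, and 2 were higher with DESeq2. TGM2, a transglutaminase related to F13A1 (0.41, adjusted p 0.0136), and NBEA, a BEACH-domain relative of NBEAL2 (0.32, adjusted p 0.0385), were higher by this threshold as well. LRBA, the most abundant of the list, had a log2 fold change of -0.17 (adjusted p 0.0622).

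Among 21 receptors and partners of the alpha-granule proteins, 16 were tested, 1 was upregulated and 1 downregulated (5.05% and 1.47% of all tested genes), and the median log2 fold change was 0.04. LRP1, an endocytic receptor that takes up many secreted ligands, had 221, 189 and 120 counts in the control replicates and 466, 448 and 567 in the C3 replicates. The groups were far apart, by 1.31 on the log2 scale (SE 0.12, adjusted p 1.8e-08 in edgeR's test). GP1BA, the receptor chain for von Willebrand factor, was the downregulated gene. By an adjusted p below 0.05, 5 of the 16 were higher, beside 11% of all tested genes, and besides LRP1 these were ITGB3, CD44 (0.20, adjusted p 0.02), LRP8 (0.25, adjusted p 0.0336) and PDIA4 (0.19, adjusted p 0.0224). With DESeq2 3 were higher at this threshold. P4HB and ITGA2B were the most abundant, at -0.13 (adjusted p 0.174) and -0.06 (adjusted p 0.573).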
